A study of Rattus norvegicus with 6 samples.

Results

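Genes that bring iron into the cell, store it, export it and sense it were followed in the renal cortex of rats given nitrilotriacetic acid trisodium monohydrate (NTA), an aminopolycarboxylate that chelates metal ions. The 10 genes were Tfrc, Cybrd1 and Slc11a2 for uptake, Ftl1, Fth1 and Ncoa4 for storage, Slc40a1 for export, and Ireb2, Aco1 and Fbxl5 for the iron regulatory proteins (IRPs). Probes were assigned to a gene where the transcript accession in the array file belonged to that symbol in the RefSeq gene table. This gave 24 probes for 9 of the 10 genes, among 11959 genes tested in all. No probe was assigned to Fbxl5, which was not analysed here. All 24 probes were well above background on all 6 arrays and none was saturated.

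The animals were male Sprague-Dawley rats, 5 weeks old at purchase. The control group (n = 3) received water and the other (n = 3) received NTA at 1000 mg per kg per day, each for 4 weeks. Total RNA of the renal cortex was hybridised to 1-colour Agilent arrays, 1 array per sample, and the series calls the samples of a group biological replicates. Renal cortex is a mixed tissue, so fewer cells of a type and less RNA per cell cannot be told apart.

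Cells of the tubule take up transferrin-bound iron through the transferrin receptor, and ferric iron is reduced before a divalent metal transporter carries it across the membrane. Iron that is not used is held in ferritin or leaves through ferroportin. When cytosolic iron is low, the IRPs bind iron-responsive elements (IREs), hairpins in the untranslated ends of messenger RNAs. That binding stabilises the transferrin receptor message and blocks translation of the ferritin messages, so ferritin control by the IRPs acts mainly on protein synthesis and is not read directly from RNA levels.

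At the probe that stands for each gene, the 3 uptake genes, Ftl1 and Fth1 were higher on every NTA array than on any water array. The ferritin genes lay less than 0.20 log2 units higher, and the IRP genes overlapped between groups. Tfrc stood 2.12-fold higher, Cybrd1 2.43-fold and Slc11a2 1.35-fold, against 1.14-fold for Ftl1 and 1.12-fold for Fth1. The order of Slc11a2 and Ftl1 depended on the probe. With the mean of all kept probes the log2 differences were 1.01 for Tfrc, 0.82 for Cybrd1, 0.31 for Slc11a2, 0.34 for Ftl1 and 0.21 for Fth1. None of these differences passed the threshold of an adjusted p under 0.05 in the limma fit over all genes (two-sided, Benjamini-Hochberg). That threshold was passed by 0.0753% of the genes tested (9 genes, none of them among the iron genes). At an unadjusted p under 0.05 the fit gave 4 of the 9 iron genes, against 12.3% of all genes. In 5 of the 9 the lowest NTA array was above the highest water array, against 13.0% of all genes, and the median log2 difference was 0.19 against 0.02. That median was 0.06 under quantile normalization and 0.31 with the mean of all probes or with slide as a fixed block. The iron genes were chosen with earlier results of these data known, so these counts are a description.

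**Figure D1:**
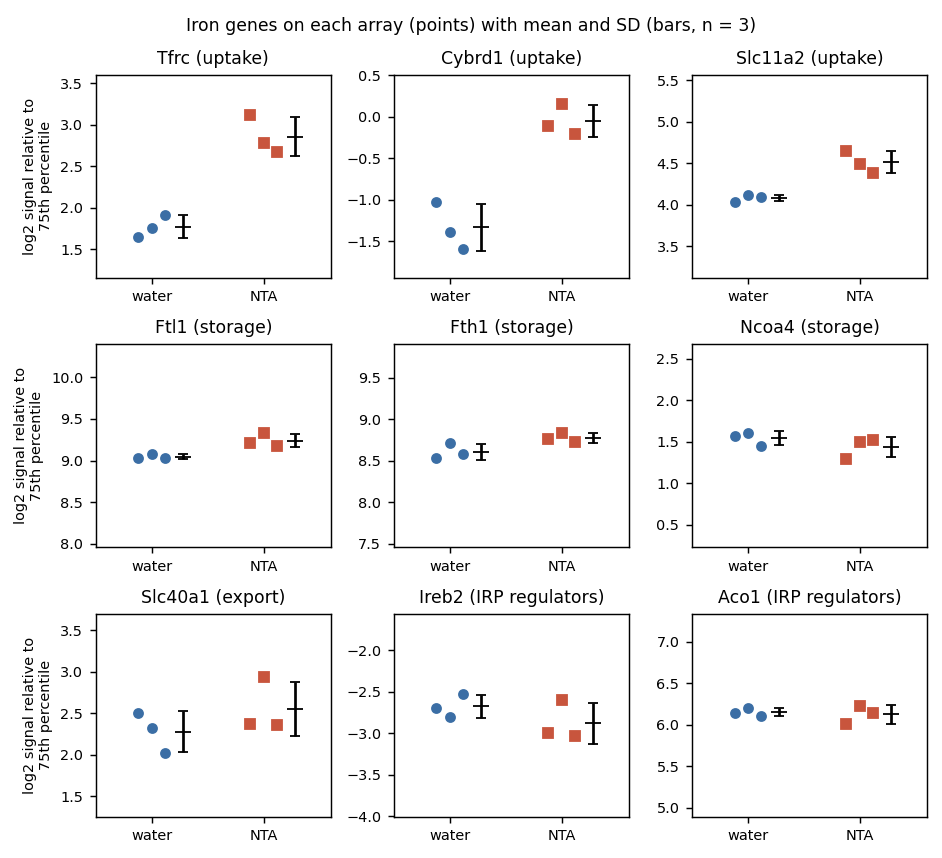
Log2 processed signal relative to the array's 75th percentile (vertical axis, the same span in each panel) for 9 iron genes on each array, with water as circles, NTA as squares and group mean ± SD beside them (n = 3). Tfrc, Cybrd1 and Slc11a2 separate by 1.08, 1.28 and 0.43, and the ferritin genes by under 0.20, while Ncoa4, Slc40a1, Ireb2 and Aco1 overlap.

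Expression values below are log2 processed signal minus the array's own 75th percentile, so 0 is a signal equal to that percentile. They are given for the gene's brightest probe, and the level of one gene's probe is not set against that of another. Tfrc, the receptor that carries transferrin-bound iron into the cell, stood at 1.64, 1.76 and 1.92 on the water arrays and at 3.12, 2.78 and 2.68 on the NTA arrays. Each NTA array was above each water array, and the closest pair differed by more than either group's SD. The log2 difference was 1.08 ± 0.14 (SE, n = 3 and 3, 95% interval 0.74 to 1.43, limma adjusted p = 0.0937). By p it was the 31st of the 11959 genes and by size of rise the 125th. With eBayes using a trend and robust variances it was called (1.08, limma adjusted p = 0.0401), and over the 18 alternatives the adjusted p ran from 0.0401 to 0.366.

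All 3 Tfrc probes gave like differences. They were 1.08 ± 0.14, 1.07 ± 0.10 and 0.87 ± 0.14 (SE), and at each probe the NTA arrays lay above the water arrays. In the limma fit over all 20727 named probes, the second of these Tfrc probes rose (adjusted p = 0.0429), as 0.145% of all probes passed that threshold. Its values were -2.43, -2.49 and -2.36 in water and -1.16, -1.46 and -1.45 in NTA. Within the slide that held both groups, water 1 against NTA 2, Tfrc differed by 1.13, and among the 4 arrays of the other scan day by 1.06.

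Tfrc gave like differences at its 3 probes, and Aco1 did not differ between groups beyond its spread. The stretches before their starts are shown, since the other windows found for iron genes lie inside the span of their own gene. Both are the 250 bases upstream of the RefSeq start on build GRCr8, written 5′ to 3′ on the gene's strand. Capitals mark the letters ACGTG or GCGTG on either strand, the core of the element bound by hypoxia-inducible factors, which are known to act on the transferrin receptor gene. Tfrc lies on the minus strand (chr11:81690319-81690568) and Aco1 on the plus strand (chr5:60055645-60055894).
Tfrc: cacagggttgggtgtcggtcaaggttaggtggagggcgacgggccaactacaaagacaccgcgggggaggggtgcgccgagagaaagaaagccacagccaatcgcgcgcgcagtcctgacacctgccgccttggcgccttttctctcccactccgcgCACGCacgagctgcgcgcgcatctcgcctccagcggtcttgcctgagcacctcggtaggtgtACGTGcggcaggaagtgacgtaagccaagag
Aco1: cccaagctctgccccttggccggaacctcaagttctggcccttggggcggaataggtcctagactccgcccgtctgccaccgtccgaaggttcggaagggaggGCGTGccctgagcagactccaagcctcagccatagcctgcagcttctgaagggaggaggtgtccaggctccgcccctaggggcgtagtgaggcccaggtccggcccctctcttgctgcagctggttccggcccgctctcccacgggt
The Tfrc stretch held 2 such matches, ACGTG from 31 to 27 bases before the start and GCGTG on the opposite strand from 93 to 89 bases before it. Aco1 held 1, from 147 to 143 bases before the start. In the windows that are not printed, Ncoa4 and Fbxl5 held 2 each and Cybrd1 1. Slc11a2 held 1 or 0 by window, and Ireb2 and Slc40a1 held 0. Whether the matches bear on the differences was not tested. Of 33469 windows of the same length, 36.7% held at least 1 match. The antioxidant response core TGACNNNGC, searched on both strands and found in 10.1% of all windows, had no match in either stretch and 1 in the Ncoa4 window. A match is a run of letters and not a measured binding site. RefSeq windows were found for 8 of the 10 genes, and those of the other 6 lie inside the span of their own gene and are not printed.

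Cybrd1, duodenal cytochrome b, reduces ferric to ferrous iron at the cell surface. At its brighter probe it stood at -1.03, -1.39 and -1.59 in water and at -0.11, 0.16 and -0.21 in NTA. The groups did not overlap, and the log2 difference was 1.28 ± 0.17 (SE, 95% interval 0.86 to 1.70, limma adjusted p = 0.0944). The second Cybrd1 probe gave a smaller difference of 0.36 ± 0.18, with values of -1.46, -1.93 and -2.12 in water and -1.62, -1.35 and -1.45 in NTA. At that probe the groups overlapped, since water 1 lay above NTA 1. The mean of both probes put Cybrd1 at 0.82 (limma adjusted p = 0.236), more than 1.5 times below the value of the brighter probe alone. With normexp background correction the brighter probe was called (1.20, limma adjusted p = 0.0457), and over the alternatives the adjusted p ran from 0.0457 to 0.327. Which transcripts each probe reads was not tested.

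Slc11a2 encodes the divalent metal transporter DMT1, which moves ferrous iron across the apical membrane and out of endosomes. It stood at 4.04, 4.12 and 4.09 in water and at 4.65, 4.49 and 4.39 in NTA. The water arrays lay within an SD of 0.04 and every NTA array was above them. The log2 difference was 0.43 ± 0.08 (SE, 95% interval 0.22 to 0.63, limma adjusted p = 0.216). The other 2 Slc11a2 probes differed by 0.32 ± 0.12 and 0.19 ± 0.07, again without overlap. Slc11a2 is known to make messages with and without an IRE, and which of them each probe reads was not tested. Its difference stayed between 0.31 and 0.49 over the 18 alternatives, of which 0 called it.

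**Figure D2:**
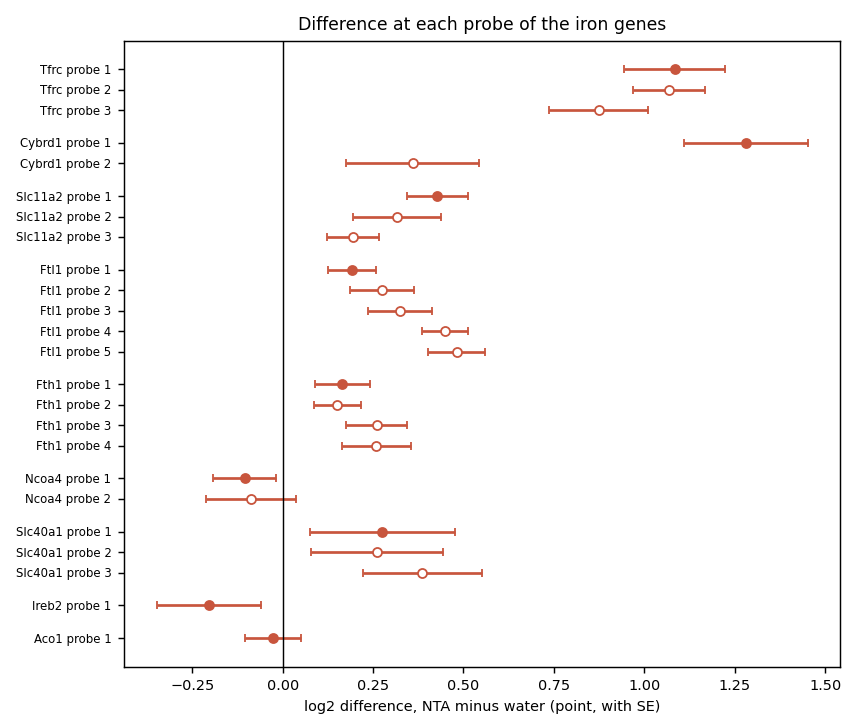
Log2 difference, NTA minus water (horizontal axis, point with SE), at each of the 24 probes of 9 iron genes, ordered within a gene from the highest to the lowest signal in water; filled points are the probes that stand for the gene. The Tfrc probes lie between 0.87 and 1.08, the Cybrd1 probes at 1.28 and 0.36, and the Ftl1 probes run from 0.19 at the brightest to 0.48 at the dimmest.

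Ferritin, the shell in which iron is stored, is built from light and heavy subunits, the heavy one being the ferroxidase. The light subunit gene Ftl1 stood at 9.04, 9.08 and 9.03 in water and at 9.21, 9.33 and 9.18 in NTA. These arrays did not overlap, though the difference was small, at 0.19 ± 0.06 (SE, 95% interval 0.03 to 0.35, limma adjusted p = 0.349). Fth1, the heavy subunit gene, stood at 8.53, 8.72 and 8.58 in water and at 8.76, 8.84 and 8.72 in NTA. Here the lowest NTA array was barely above the highest water array, and the difference was 0.17 ± 0.07 (95% interval -0.02 to 0.35, limma adjusted p = 0.449).

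Ferritin differences depended on the probe. At all 5 Ftl1 probes and all 4 Fth1 probes every NTA array lay above every water array, as it did for 11.6% of all named probes. From the brightest Ftl1 probe to the dimmest the log2 difference was 0.19, 0.28, 0.32, 0.45 and 0.48, so the probe that stands for the gene gave the smallest. At the dimmest, Ftl1 stood at 7.18, 7.20 and 7.15 in water and at 7.53, 7.76 and 7.68 in NTA. The Fth1 probes gave 0.17, 0.15, 0.26 and 0.26 in the same order. The mean of all probes put Ftl1 at 0.34, more than 1.5 times the value above, and Fth1 at 0.21, while quantile normalization put both at 0.06. The part that the top of the scanner's range plays in this order was not tested. RefSeq also lists 21 genes or pseudogenes named after Ftl1 and 6 named after Fth1, and whether the probes tell them apart was not tested, so both ferritin values are uncertain in that respect.

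Ncoa4, the receptor that delivers ferritin to the lysosome so that its iron is released, stood at 1.57, 1.61 and 1.45 in water and at 1.30, 1.50 and 1.52 in NTA, with overlap. The difference was -0.11 ± 0.09 (SE, 95% interval -0.32 to 0.11, limma adjusted p = 0.665), and its second probe gave -0.09 ± 0.12. These intervals leave room for a modest change in either direction.

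Slc40a1 is ferroportin, the exporter of cellular iron. It stood at 2.50, 2.32 and 2.02 in water and at 2.37, 2.93 and 2.36 in NTA. NTA 2 was the highest array and the other two NTA arrays lay within the water range, so the groups overlapped. The difference was 0.28 ± 0.20 (SE, 95% interval -0.22 to 0.77, limma adjusted p = 0.623), and the other probes gave 0.26 ± 0.18 and 0.39 ± 0.16. Without NTA 2 it was 0.09, without water 3 0.15 and within the shared slide 0.43.

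Macrophages and red cell precursors are rich in ferroportin, so the markers of both were read beside it. The mean of 6 measured macrophage markers was 0.15 on NTA 2, against 0.85 and 0.81 on NTA 1 and 3 and 0.45 to 0.61 in water. NTA 2 was the lowest array for 4 of these 6 markers (Adgre1, C1qa, C1qb and Cd68) and lay within the water range for Csf1r and Mrc1. The mean of 5 measured erythroid and blood markers, Alas2 among them, was -0.04 on NTA 2, against -0.86 and -0.59 on the other NTA arrays and -0.47 to -0.28 in water. NTA 2 was the highest array for 2 of the 5, Alas2 and Hbb, and lay within the water range for Ahsp, Epb42 and Hemgn. The part of either in the Slc40a1 value was not tested.

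The IRP genes overlapped between groups. Aco1 encodes IRP1, which is the cytosolic aconitase when it holds an iron-sulfur cluster and binds IREs when it does not. It stood at 6.14, 6.20 and 6.11 in water and at 6.002, 6.23 and 6.14 in NTA, a difference of -0.03 ± 0.08 (SE, 95% interval -0.22 to 0.16, limma adjusted p = 0.922). Ireb2 encodes IRP2, which is degraded when iron is plentiful. It stood at -2.69, -2.80 and -2.53 in water and at -3.00, -2.59 and -3.04 in NTA, a difference of -0.20 ± 0.14 (95% interval -0.56 to 0.15, limma adjusted p = 0.614). NTA 1 and NTA 3 were the lowest arrays for Ireb2, and NTA 2 lay within the water range. Both genes have 1 probe. Within the shared slide the signs turned, to 0.10 for Ireb2 and 0.09 for Aco1, against -0.36 and -0.08 on the other scan day. Without NTA 1, Aco1 stood at 0.03.

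**Figure D3:**
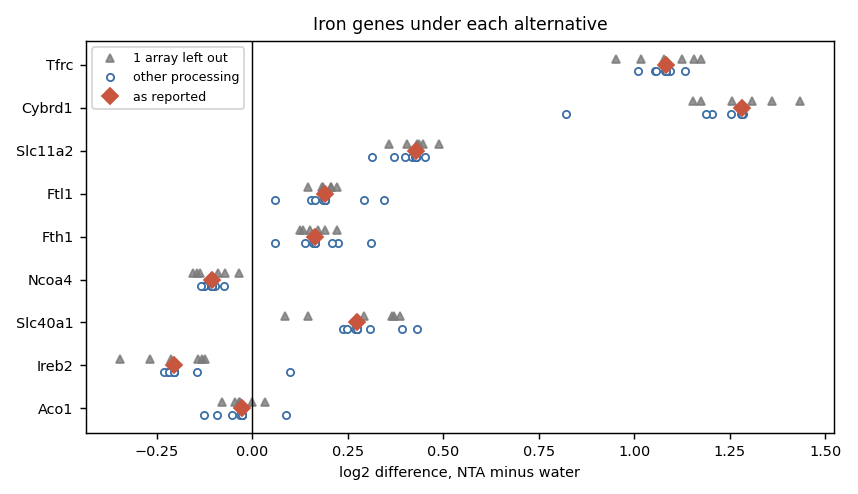
Log2 difference, NTA minus water (horizontal axis), for 9 iron genes as reported (diamonds), with 1 array left out (triangles) and under other processing (circles). Tfrc stays between 0.95 and 1.17 and Cybrd1 between 0.82 and 1.43, while Ireb2 and Aco1 cross 0.

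The wider iron pathway was read from 7 lists, 66 genes of which were tested, and 0 passed the adjusted threshold in limma. At an unadjusted p under 0.05 there were 5 higher, where all genes gave 7.77%, and 5 lower, where all genes gave 4.52%. Of the 66, 36 had a log2 difference above 0 (54.5%, against 56.5% of all genes), and their median was 0.03. The shares of the wider pathway were thus near those of all genes in sign and in genes higher at that unadjusted p. The share lower at that p was above that of all genes, and 4 of those 5 genes were in 1 list, iron export and systemic iron signals.

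Among 14 other genes of the transferrin cycle and iron import, 5 were above 0 and 0 had an unadjusted p under 0.05, with a median of -0.03. Their log2 differences ran from -0.36 to 1.21, and every one of these genes overlapped between groups. Transferrin itself, Tf, stood at 2.33, 2.15 and 2.14 in water and at 3.01, 2.22 and 2.85 in NTA (0.48 ± 0.21, limma adjusted p = 0.433). NTA 2 was near the water arrays, and within the shared slide the Tf difference was -0.11. Steap2, an endosomal ferrireductase, differed by -0.21 ± 0.11 (limma adjusted p = 0.510). Lrp2, the megalin receptor that takes filtered proteins into the proximal tubule, differed by -0.03 ± 0.06 (limma adjusted p = 0.890).

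Of 4 genes of iron chaperones and ferritin turnover, 2 were above 0, with a median of 0.00. Pcbp2, which hands iron to ferritin, differed by 0.08 ± 0.06. Herc2, a ubiquitin ligase that acts on Ncoa4, differed by -0.16 ± 0.14, and Tax1bp1, an autophagy adaptor, by -0.00 ± 0.06.

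Of 13 genes of iron export and systemic iron signals, 4 were above 0, with a median of -0.14 that ran from -0.20 to -0.05 with 1 array left out. In this list 4 genes were lower at an unadjusted p under 0.05, against 4.52% of all genes. The same 4 did not overlap between groups, as 7.23% of all genes did not in that direction. They were Acvr1 and Bmpr1a, receptors for bone morphogenetic proteins, Smad7, an inhibitor of that signal, and Hjv, a co-receptor. Acvr1 stood at -2.11, -2.18 and -2.01 in water and at -2.47, -2.38 and -2.46 in NTA (-0.34 ± 0.07, limma adjusted p = 0.216). Smad7 stood at 2.09, 2.38 and 2.35 in water and at 1.71, 1.94 and 1.67 in NTA (-0.50 ± 0.11, limma adjusted p = 0.228). Within the shared slide Smad7 differed by -0.16 and on the other scan day by -0.67. Bmpr1a (-0.33 ± 0.12) and Hjv (-0.93 ± 0.36) were picked once their values had been seen.

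The complex that degrades IRP2 joins Fbxl5 to Skp1, Cul1 and Rbx1. Skp1 stood at 6.70, 6.82 and 6.75 in water and at 6.93, 6.95 and 6.98 in NTA, without overlap (0.20 ± 0.06, limma adjusted p = 0.298). Cul1 was lower without overlap, by -0.12 ± 0.06. Of all genes, 13.0% were higher and 7.23% lower without overlap. Neither Skp1 nor Cul1 is specific to IRP2, since both serve many other ubiquitin ligases.

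Among 6 other messages known to carry an IRE, 4 were above 0 with a median of 0.07. Alas2, the erythroid heme synthesis enzyme, stood at 0.55, 0.31 and 0.36 in water and at 0.51, 1.34 and 0.40 in NTA (0.35 ± 0.26, limma adjusted p = 0.630), with NTA 2 alone above the water arrays.

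Of 17 genes of mitochondrial iron and iron-sulfur assembly, 15 were above 0, with a median of 0.11 that was 0.07 under quantile normalization and 0.08 under normexp. Of all genes, 56.5% were above 0. In 6 of the 17 the NTA arrays lay above the water arrays, against 13.0% of all genes, and 3 were higher at an unadjusted p under 0.05, against 7.77%. Fdx2, a ferredoxin of cluster assembly, stood at 3.74, 3.68 and 3.74 in water and at 3.95, 3.97 and 3.90 in NTA (0.22 ± 0.06, limma adjusted p = 0.270). Slc25a37, mitoferrin 1, which carries iron into mitochondria, stood at -1.76, -1.60 and -1.61 in water and at -1.51, -0.84 and -1.08 in NTA (0.51 ± 0.18, limma adjusted p = 0.351). Its highest array was again NTA 2, as for Alas2 and Hbb but not for the other 3 erythroid markers, and their part in its value was not tested. Iba57, a late assembly factor, differed by -0.13 ± 0.21.

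Of 9 genes of cytosolic iron-sulfur assembly, 4 were above 0, against 56.5% of all genes, with a median of -0.02. Ciapin1 (0.18 ± 0.07) lay higher and Nubp1 (-0.15 ± 0.06) lower, each without overlap, and both belong to the early cytosolic machinery. That is 1 of 9 on each side, near the 13.0% higher and 7.23% lower of all genes. Cisd1, an iron-sulfur protein of the outer mitochondrial membrane, differed by 0.08 ± 0.06.

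**Figure D4:**
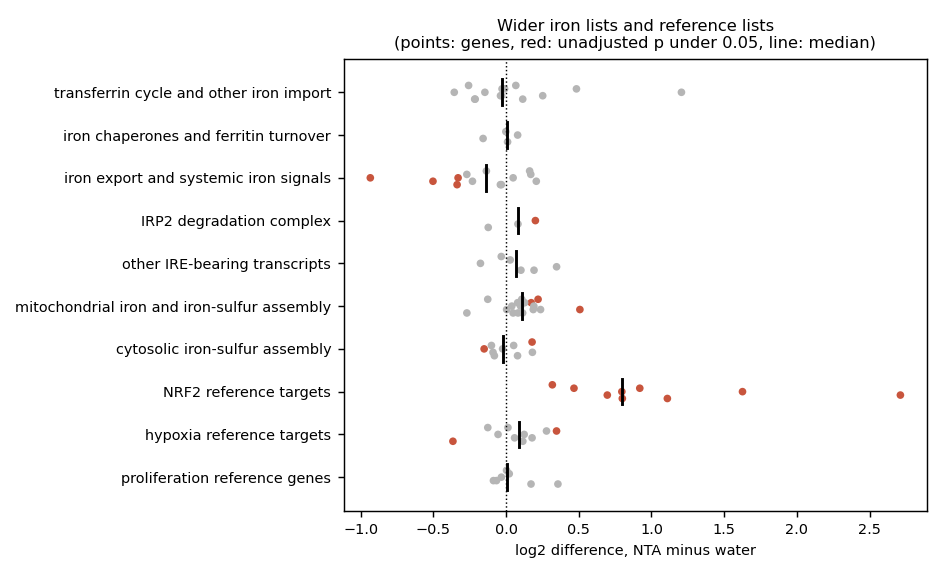
Log2 difference, NTA minus water (horizontal axis), of each gene in 7 iron lists and 3 reference lists, with genes at an unadjusted p under 0.05 in red and the list's median as a line. Medians of the iron lists lie between -0.14 and 0.11, and that of the NRF2 reference list at 0.80.

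Ferritin genes and several iron genes are known to be induced by NRF2, a regulator of antioxidant genes. All 9 measured NRF2 reference genes lay higher in NTA without overlap, against 13.0% of all genes, with a median of 0.80. In limma 0 passed the adjusted threshold and 9 had an unadjusted p under 0.05, against 7.77% of all genes on the higher side. Nqo1, a quinone reductase, differed by 2.71 ± 0.27 and Blvrb, which reduces biliverdin, by 0.80 ± 0.08 (limma adjusted p = 0.0648 for each). Gclc, of glutathione synthesis, differed by 0.80 ± 0.27 (limma adjusted p = 0.349). Their part in the values of the iron genes was not tested.

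The genes whose pattern over the 6 arrays was most like that of Tfrc were Rpap1 (Pearson r = 0.998), Col18a1 (0.993), Rbm47 (0.990), Bckdha (0.988) and Panx2 (0.988). This likeness holds mainly the group difference and the order within groups over few arrays, and it is a description.

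All 9 general proximal tubule markers were well above background on all arrays, with a median difference of -0.03. So was every tested marker of the inner medulla and papilla, so detection does not separate cortex from other parts of the kidney. The 6 tested markers of the proximal S3 segment were mixed, with a median of 0.06. Slc7a13 (0.95 ± 0.43) and Slc22a7 (0.98 ± 0.50) were above 0 with overlap. Slc5a8 (-1.25 ± 0.19, limma unadjusted p = 0.000599, limma adjusted p = 0.146) and Slc27a2 (-0.15 ± 0.07) lay lower without overlap, as 7.23% of all genes did. These 4 were picked once their values had been seen. The share of probes well above background was 68.4% to 73.5% per array, and Pearson r between arrays, taken across genes, ran from 0.992 to 0.994 inside a group and from 0.990 to 0.993 across groups. The 75th percentile of processed signal was 1296 to 1316 on the water arrays and 1133 to 1220 on the NTA arrays. Of 5 genes listed as markers of inner medulla and papilla, 3 were higher at an unadjusted p under 0.05, against 7.77% of all genes. They were Cryab (1.26 ± 0.28), Akr1b1 (0.38 ± 0.11) and Fxyd2 (0.20 ± 0.06). Whether Fxyd2, or any other gene of this list, marks that part of the kidney alone was not tested. Aqp4 (0.10 ± 0.17) and Slc14a2 (-0.20 ± 0.16) overlapped between groups, and Slc14a2 lay below 0. The choice to name these genes followed a look at the data. The mean of the 5 markers was 1.32 to 1.53 in water and 1.73 to 1.82 in NTA, with Cryab the largest difference among them. Of 7 tested markers of distal tubule and collecting duct, 4 were above 0, with a median of 0.04. In 1 of the 7 the NTA arrays lay above the water arrays, against 13.0% of all genes. That gene was Slc4a1 (0.35 ± 0.10), while Scnn1g (-0.42 ± 0.23) lay below 0 with overlap. Both were picked once their values had been seen. The collecting duct gene Aqp2, of the same list, differed by 0.04 ± 0.12. The part of sampling depth in the cortex in the iron values was not tested.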

How the data were processed

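Renal cortex RNA of 6 rats (3 water, 3 NTA) was measured on 1-colour Agilent arrays, scanned and quantified with Feature Extraction 10.7.1.1, per the file headers (10.7, per the submitters' processing notes). The intensity values, deposited by the authors, are background-corrected processed signals on a linear scale, not normalized between arrays. The table deposited by the authors holds a ratio, processed signal over 1 constant per array, which from the values lay within 0.072% of the array's 75th percentile. Its column medians were 0.110 to 0.115, on a linear scale in the direction of signal, with no centring of genes.

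The expression value was the log2 processed signal less that array's 75th percentile, taken over the 61657 probes that are not controls. Outlier spots were left out. Probes were named through RefSeq transcripts of GRCr8 (27447 with 1 symbol, 34210 without). A probe was kept if all 3 arrays of either group had it well above background, and a gene was its brightest probe. NTA was compared with water with limma 3.58.1 (R 4.3.3, lmFit and eBayes), two-sided, with Benjamini-Hochberg adjustment over 11959 genes. SE and 95% intervals come from that fit and SD from the arrays of a group. On simulated data of 11959 genes, changes of 0.5, 1, 2 and 4 log2 units were set in, with independent noise and no slide or scan day effect. Of genes changed by 1 log2 unit 67.6% were called, and 46.0% of those changed by 0.5. With fewer true changes the adjusted threshold is stricter. The real comparison called 9 genes, so these shares can be too high for the iron genes.

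The genes and lists were chosen with earlier results of these data known. Named are the 10 iron genes, and in each wider list the 2 genes of smallest p, the 1 of highest signal and any called; others are marked. A gene that this rule names is counted in its list but not reported here by name. No list was tested.

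Slide and scan day come from the headers: slide 3 held water 1 and NTA 2 and was scanned on day 2, slide 1 held water 2 and 3 and slide 2 held NTA 1 and 3, both scanned on day 1. The alternatives were normexp (offset 50, on median signals, since the planned mean signals are not used here), quantile and median scaling, the authors' table, 2 other filters, the mean of probes, eBayes with trend and robust, blocks for replicate number, slide and scan day, and each array left out.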

Additional observations from a re-analysis of the deposited data

How the results depend on the processing

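Of 162 comparisons of the iron genes with an alternative, 157 kept direction and side of the threshold, 2 became calls and 3 turned sign. Of 486 such comparisons of genes named from the wider and reference lists, 461 kept both, 6 became calls (of Nqo1 or Blvrb) and 19 turned sign. The count of called genes, 9, was 22 under normexp (1640 at an unadjusted p under 0.05), 38 with eBayes trend and robust, 5 with slide as a fixed block, and 0 under quantile (1415) and median scaling (1388), with no filter on dim probes (1363) and with scan day as a block (1513). It ran from 0 to 4 with 1 array left out, 4 being without NTA 2 (1069 to 1352 at an unadjusted p under 0.05). The iron genes called, 0, were 1 under normexp (Cybrd1) and 1 with eBayes trend and robust (Tfrc). Their median log2 difference, 0.19, was 0.0606 under quantile and 0.31 with the mean of probes and, again, with a fixed slide block, where the estimate comes from water 1 and NTA 2 alone. The replicate block called 0 genes by limma (1253 at an unadjusted p under 0.05) and left the log2 differences as they were. Deviations of same-numbered samples correlated at 0.07, -0.09 and 0.04, and those of differently numbered samples at -0.12 to 0.10. Deviations from a mean of 3 sum to 0, so these values cannot decide whether same-numbered samples are linked. The random slide block had a consensus correlation of -0.07. With the fixed slide block signs turned for Ireb2 (0.0975), Aco1 (0.0894), Steap2 (0.0077), Tf (-0.1093), Tax1bp1 (0.0341) and Tyms (0.0313). Other turns of sign were Pcna (-0.0549 under normexp, -0.0127 under quantile, -0.0242 under median scaling and -0.0052 with the random slide block), Tyms (4e-04 under normexp), Cisd1 (-0.043 under quantile), and Iba57 (0.0695) and Rrm2 (-0.0527) with the mean of probes. With 1 array left out, Aco1 ran from -0.0781 to 0.0336, Tax1bp1 from -0.0255 to 0.0194, Iba57 from -0.2747 to 0.0642 and Pcna from -0.0545 to 0.0579. The cause was not tested. The number of arrays limits the precision.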

Other observations

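The transferrin receptor gene is also known to respond to hypoxia and to cell growth, and genes of both programmes were read from lists. Of 10 measured hypoxia targets, 7 lay above 0 with a median of 0.09, and 1 was higher and 1 lower at an unadjusted p under 0.05. The shares of all genes were 56.5% above 0, 7.77% higher and 4.52% lower at that p. Slc2a1, the glucose transporter GLUT1, stood at 1.34, 1.23 and 1.21 in water and at 1.75, 1.63 and 1.44 in NTA (0.35 ± 0.10, limma adjusted p = 0.282). Ldha, of lactate formation, lay the other way, at 5.96, 5.93 and 6.11 in water and 5.68, 5.51 and 5.71 in NTA (-0.37 ± 0.09, limma adjusted p = 0.234), and Pgk1, of glycolysis, differed by -0.06 ± 0.06. Among 7 measured genes of proliferation 4 lay above 0, against 56.5% of all genes, with a median of 0.00. Pcna, the replication clamp, differed by 0.00 ± 0.08, Tyms, of thymidylate synthesis, by -0.09 ± 0.09 and Rrm2, of ribonucleotide reductase, by 0.36 ± 0.29, with NTA 1 below and NTA 2 and NTA 3 above the water arrays. No gene of either list passed the adjusted threshold in limma.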
